A study of Mus musculus with 2 samples.

Results

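The 7 genes described here encode claudins and their partners at the tight junction: *Cldn1*, *Cldn4*, *Cldn7*, *Cldn17*, *Cldn23*, *Ocln* (occludin) and *Tjp1* (the scaffold protein ZO-1). They were taken by name from the 20198 genes of a single-cell count table of mouse cornea, and all 7 were present, with 1241940 of its unique molecular identifiers (UMIs). Each UMI stands for 1 captured mRNA molecule. The 2 libraries, 1 per condition, were named UW (unwounded) and W (wounded), and each pooled 8 corneas from 4 male mice aged 6 to 8 weeks, whose strain and genotype are not given in the sources used here. In W, the central epithelium had been removed inside a 2.5 mm trephine mark and the corneas were collected 24 h later, whereas UW corneas had no wound. Mice were pooled and a condition had 1 library only, so differences between the libraries could not be set against replicate spread. No p-values are given, and the 95% intervals cover counting error only.

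Tight junctions seal the space between epithelial cells. Claudins are membrane proteins that polymerise into the strands of the seal and set which ions pass, occludin is a membrane partner within those strands, and ZO-1 ties both to the actin cytoskeleton. In the stratified corneal epithelium the working seal lies between the outermost superficial cells, and it is the surface barrier that is lost when the epithelium is debrided.

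The table held 16450 cells and 367166822 UMIs in UW, and 12417 cells and 289586482 UMIs in W, with median depths of 22014 and 20290 UMIs per cell. These are fewer cells than the study describes. Cells carried the authors' cluster numbers, 17 in all, without names. By fixed marker lists, 10 clusters (13501 UW and 8507 W cells) were epithelial. Cluster 9 was limbal-like, 3 basal-like, 11 S-phase-like, 8 mitosis-like, 1 and 4 suprabasal-like, 2, 6 and 7 superficial-like, with the highest superficial score in 7, and 5 conjunctiva-like. Clusters 0 and 10 were stromal-like, and the neutrophil-like cluster 13, the phagocyte-like clusters 14 and 15 and the T-like cluster 16 came almost wholly from W. Cluster 17, with 29 W cells, stayed unnamed. The clusters had been formed from the same genes, so levels between clusters are descriptions. In all, 52 cell barcodes occurred in both libraries.

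Levels are given as CPM, the number of UMIs of a gene per 1000000 UMIs of the summed cells. The reads tag the 3′ end of a transcript, 1 UMI per molecule whatever its length, so CPM of different genes were compared without scaling to length. A gene was counted as past the 2-fold threshold at a log2 W over UW ratio of at least 1 in size, among genes with at least 20 counts over both libraries and 10 CPM in 1 of them.

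In the GENCODE annotation of GRCm38, *Cldn4* lies on chromosome 5 (134945119 to 134946934) and *Cldn17* on chromosome 16 (88505807 to 88506978), each as a single exon on the minus strand. *Cldn1* (chromosome 16, 26356642 to 26371841, minus), *Cldn23* (chromosome 8, 35824712 to 35826559, minus), *Cldn7* (chromosome 11, 69964779 to 69967885, plus) and *Ocln* (chromosome 13, 100496507 to 100552718, minus) have up to 4, 2, 5 and 9 exons in a transcript. *Tjp1* is the longest, from 65296165 to 65527781 on the minus strand of chromosome 7 with up to 28 exons, and 3 predicted genes overlap it. *Gm44792* and *Gm44794* lie on its own strand, where reads could be shared, and *Gm44795* lies on the opposite strand. The other members overlap no annotated gene.

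The promoter windows below belong to the 4 members that passed the 2-fold threshold in at least 1 epithelial cluster. Each runs from 250 bases before to 50 bases after a RefSeq transcription start (GRCm38.p6), 5′ to 3′ on the gene's strand, and capitals mark matches, on either strand, to an AP-1 motif (TGANTCA), a Grainyhead motif (AACCNGTT), a GC box (CCGCCC) or a TATA motif (TATAAA).
*Cldn1*, chr16:26371790-26372089, minus strand: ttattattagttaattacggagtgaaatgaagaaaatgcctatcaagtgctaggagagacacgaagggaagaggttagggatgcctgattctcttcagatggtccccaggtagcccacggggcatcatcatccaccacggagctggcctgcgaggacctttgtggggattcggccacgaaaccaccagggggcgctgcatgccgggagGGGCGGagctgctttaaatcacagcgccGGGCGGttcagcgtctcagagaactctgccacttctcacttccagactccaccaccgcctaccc
*Cldn4*, chr5:134946885-134947184, minus strand: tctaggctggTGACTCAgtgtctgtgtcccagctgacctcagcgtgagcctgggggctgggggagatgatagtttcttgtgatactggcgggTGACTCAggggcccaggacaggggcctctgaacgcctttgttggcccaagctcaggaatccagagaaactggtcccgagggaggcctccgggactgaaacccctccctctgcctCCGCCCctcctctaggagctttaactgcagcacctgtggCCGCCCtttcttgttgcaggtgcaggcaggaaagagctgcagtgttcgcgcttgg
*Cldn17*, chr16:88506929-88507228, minus strand: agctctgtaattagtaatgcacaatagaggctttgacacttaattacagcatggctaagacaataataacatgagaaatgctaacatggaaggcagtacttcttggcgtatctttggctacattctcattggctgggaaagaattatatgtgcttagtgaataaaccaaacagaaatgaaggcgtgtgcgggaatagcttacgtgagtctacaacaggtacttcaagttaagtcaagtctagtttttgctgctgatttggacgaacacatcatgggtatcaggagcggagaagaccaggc
*Tjp1*, chr7:65371195-65371494, minus strand: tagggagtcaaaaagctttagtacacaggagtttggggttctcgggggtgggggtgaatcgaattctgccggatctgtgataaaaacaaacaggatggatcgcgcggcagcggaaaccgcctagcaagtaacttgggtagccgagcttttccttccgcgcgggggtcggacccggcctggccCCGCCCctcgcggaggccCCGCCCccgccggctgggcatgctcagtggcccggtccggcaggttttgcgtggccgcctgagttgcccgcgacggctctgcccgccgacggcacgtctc
Windows were found for 6 of the 7 members, 8 windows in all. The *Tjp1* window lies inside the annotated gene, whose upstream end at 65527781 has no window here. The *Cldn4* window holds 2 AP-1 matches, both TGACTCA, which start 240 and 158 bases before the transcription start. An AP-1 match occurs in 7.81% of all 32851 windows of this length, and 2 or more occur in 0.46%. GC boxes were found in the windows of *Cldn1* (2), *Cldn4* (2), *Tjp1* (2), *Ocln* (1 in each of 2) and *Cldn7* (1 in the second of 2), against 35.7% of all windows. The *Cldn17* window is 41% G and C, against a median of 52.7% over all windows, and holds none of the 4 motifs. No member window holds the Grainyhead motif (2.09% of all windows) or the TATA motif (13.6%). No match overlaps another, and a match of letters is a description and not a binding site.

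In the unwounded epithelium the 7 genes differed in how their levels ran across the layers. *Cldn1*, a sealing claudin of stratified epithelia, was a transcript of proliferative and early suprabasal cells. In UW it stood at 178 CPM in mitosis-like cluster 8, 174 in basal-like cluster 3, 160 in S-phase-like cluster 11, 142 in suprabasal-like cluster 1 and 130 in limbal-like cluster 9. Only clusters 8 and 3 among these neighbours had overlapping intervals. It was far lower in suprabasal-like cluster 4 (29.2 CPM) and superficial-like clusters 2 (10.0), 7 (7.60) and 6 (5.17). The last of these was close to the 4.99 CPM of stromal-like cluster 0, cells that should not carry *Cldn1*.

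*Cldn23*, a claudin of differentiated epithelial cells, ran the other way from basal-like to superficial-like cells. In UW it rested at 14.1 to 24.9 CPM in clusters 11, 3, 8, 9 and 1, near the 17.6 CPM of stromal-like cluster 0, then stood at 77.9 in cluster 4, 234 in cluster 2, 645 in cluster 6 and 1065 in cluster 7. The level in cluster 7 was 74.0-fold that of basal-like cluster 3 (log2 6.21, 95% interval 6.08 to 6.34), the steepest gradient among the 7 genes. Cluster 3, at 14.4 CPM, was no higher than stromal-like cluster 0, so the size of this fold depends on background. In conjunctiva-like cluster 5 of UW both were present, *Cldn1* at 94.3 CPM and *Cldn23* at 208. *Tjp1* followed the same layers over a smaller range, from 48.2 CPM in limbal-like cluster 9 and 73.9 in cluster 3 to 429 in cluster 6 and 467 in cluster 7 (6.32-fold over cluster 3).

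*Cldn4* and *Cldn7*, barrier claudins of many simple and stratified epithelia, were the most abundant members. In UW, *Cldn4* stood between 559 and 1288 CPM in 9 of the 10 epithelial clusters, with its highest level in suprabasal-like cluster 1, and dropped to 154 CPM in cluster 7 alone. *Cldn7* climbed from 125 CPM in limbal-like cluster 9 and 400 in cluster 3 to 1211 in cluster 2 and 1160 in cluster 6, and was 562 in cluster 7. *Ocln* varied least, from 24.0 CPM in cluster 9 to 80.2 in cluster 6 (3.34-fold). *Cldn17*, known as a channel for anions, was the scarcest in the pooled epithelium, though not in every cluster. In UW it reached 47.0 CPM in suprabasal-like cluster 4, where it was itself the leading gene of the cluster by fold, 30.0 in cluster 1 and 19.4 in cluster 2, and was below 5 CPM in the other 7 epithelial clusters.

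**Figure D1:**
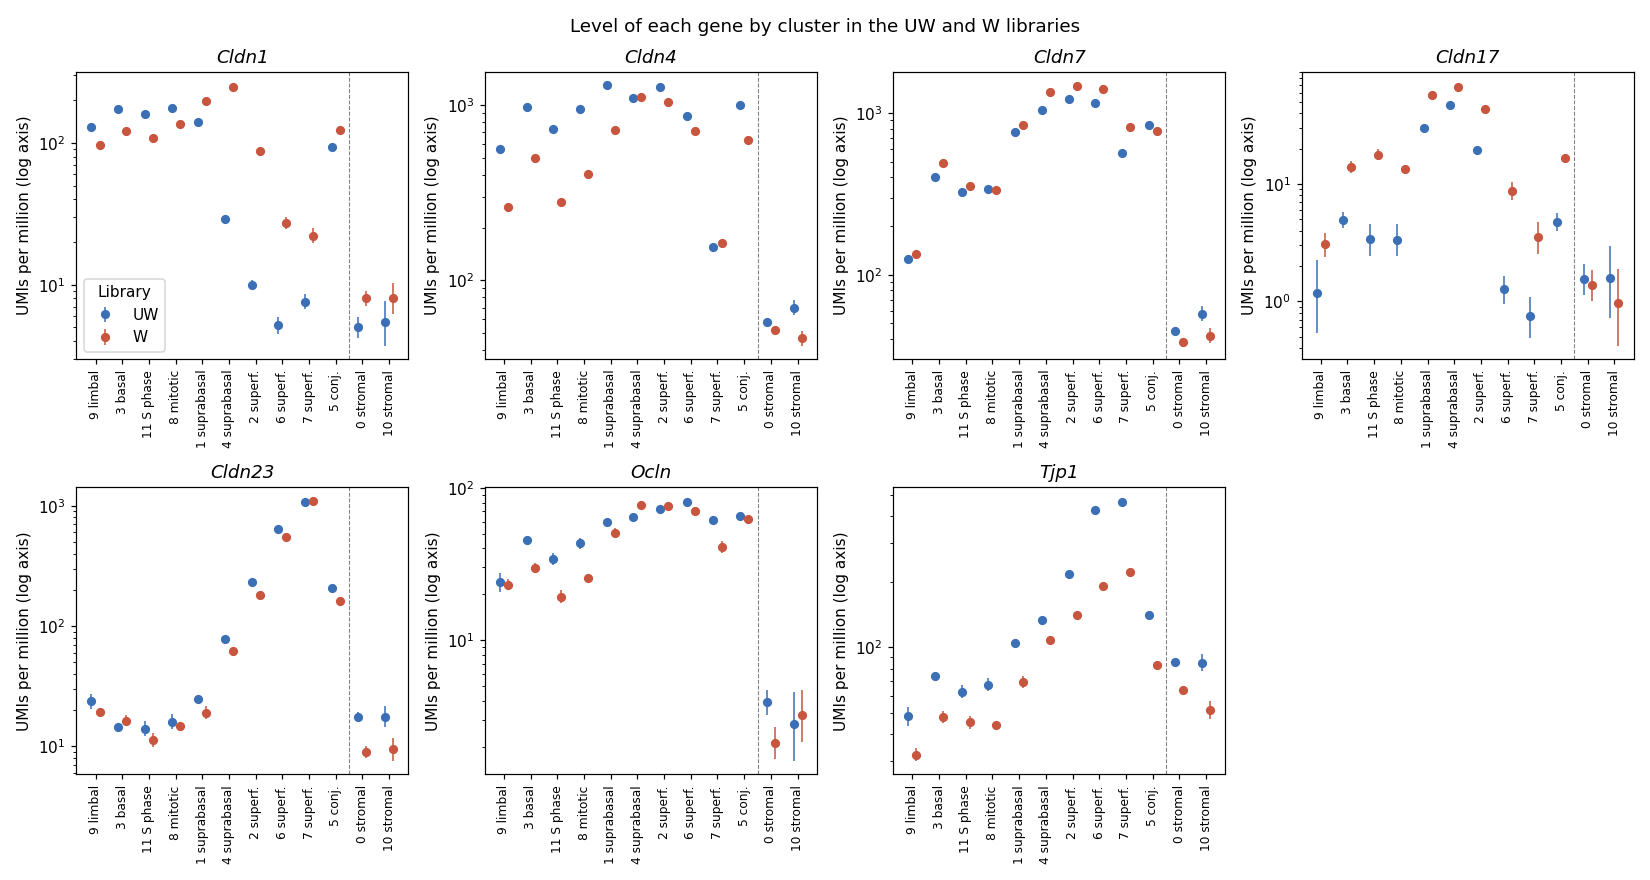
Level of each gene (CPM, logarithmic axis) in the 10 epithelial clusters, ordered from limbal-like to superficial-like with the conjunctiva-like cluster last, and in stromal-like clusters 0 and 10 right of the dashed line. Blue points are the UW library and red points the W library, and bars are exact Poisson 95% intervals. *Cldn1* in cluster 4 stands at 29.2 in UW and 249.96 in W, while *Tjp1* is lower in W in every cluster shown.

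The layers therefore differed in which claudins made up the pool. Over all claudin UMIs of a cluster in UW, *Cldn4* gave 61.3% in basal-like cluster 3, *Cldn7* 25.2% and *Cldn1* 10.98%. In superficial-like cluster 6 *Cldn7* led with 39.2%, ahead of *Cldn4* (29.1%) and *Cldn23* (21.8%), and in cluster 7 *Cldn23* gave 57.7%. *Cldn3*, the one other claudin above 10 CPM in the pooled epithelium, gave at most 14.3%, in conjunctiva-like cluster 5. In W the lead passed from *Cldn4* to *Cldn7* in clusters 1, 2, 4, 5 and 11, and in cluster 3 the pair came level at 41.9% and 41.5%. The *Cldn4* to *Cldn7* ratio, which does not depend on library scaling, was lower in W in all 10 clusters, for example 2.43 against 1.01 in cluster 3, 4.48 against 1.96 in cluster 9 and 0.27 against 0.20 in cluster 7.

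**Figure D2:**
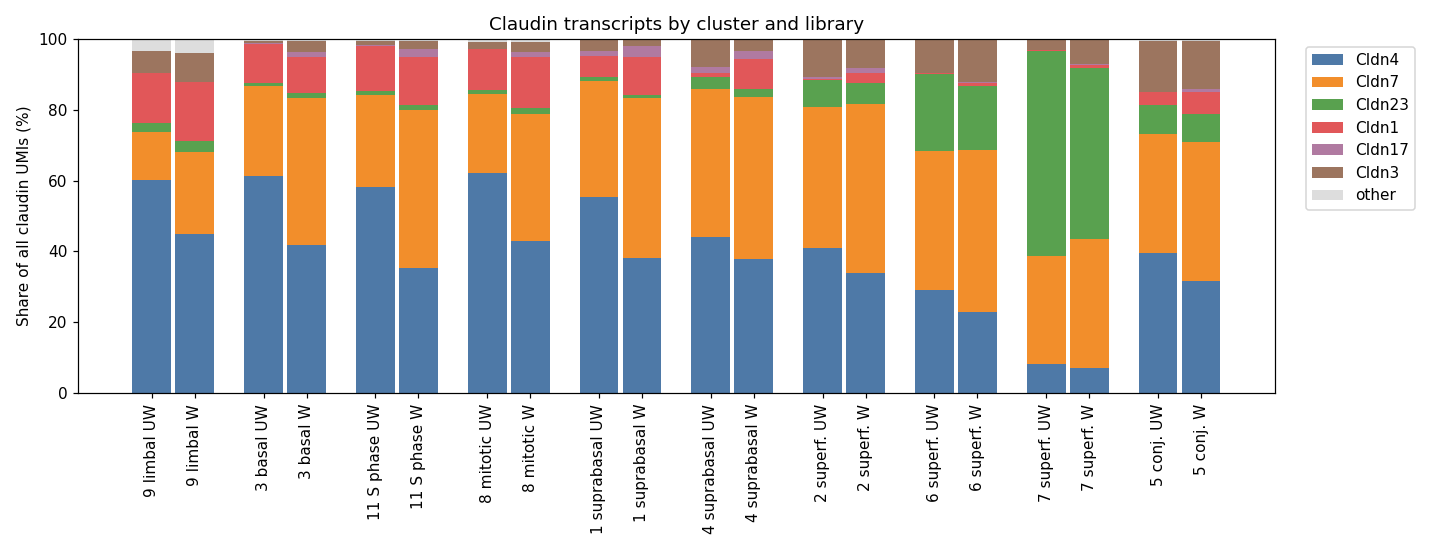
Share of all claudin UMIs (percent) taken by each claudin in each epithelial cluster, with UW and W side by side. *Cldn4* shrinks from basal-like to superficial-like clusters while *Cldn23* reaches 57.7% in cluster 7 of UW, and *Cldn7* takes a larger share in W than in UW in all 10 clusters.

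Marker lists moved between the libraries in all 10 epithelial clusters, and so beside every ratio that follows, and their part in the ratios was not tested. The summed basal list ran from 142 to 7730 CPM over the clusters of UW and from 1297 to 18175 over those of W, and was higher in W in each cluster, with 2 to 5 of its 5 genes higher. The limbal list was likewise higher in each (18.5 to 3045 CPM in UW and 712 to 4298 in W, 3 or 4 of 4 genes higher), as was the conjunctival list (201 to 9603 and 785 to 13197 CPM, 3 or 4 of 4). The superficial list was lower in each (1738 to 59069 and 284 to 30309 CPM, 0 or 1 of 5 higher), and of the suprabasal list 4 of 5 genes were lower in each. Without *Krt14* the basal list was lower in W in clusters 8, 9 and 11 and higher in the rest. No gene of these lists was at 0. The neutrophil list was at 1.94 to 155 CPM in UW and 352 to 1050 in W, with 3 or 4 of 4 genes higher, *Retnlg* at 0 in all 10 clusters of UW and *Csf3r* at 0 in 5 of them.

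The largest ratio of any member in a single epithelial cluster was that of *Cldn1*, and its direction differed between clusters. Over all epithelial cells *Tjp1* and *Cldn23* had ratios larger in size than that of *Cldn1*, and with equal weight per cluster *Cldn17*, *Tjp1* and *Cldn4* did. In suprabasal-like cluster 4 it was 29.2 CPM in UW (1260 UMIs) and 249.96 in W (5664 UMIs), a log2 ratio of 3.099 (95% interval 3.01 to 3.19) or 8.57-fold. In cluster 2 it was 10.0 and 87.1 CPM (log2 3.12, 2.99 to 3.25), in cluster 6 5.17 and 27.2 CPM (2.40, 2.16 to 2.64), and in cluster 7 7.60 and 22.2 CPM (1.54, 1.30 to 1.79). These are the clusters that held little *Cldn1* in UW. Of the 5 clusters that held most, 4 had less of it in W, with log2 ratios of -0.52 in cluster 3, -0.38 in cluster 8, -0.42 in cluster 9 and -0.57 in cluster 11, each interval below 0. Cluster 1, the other of the 5 (0.48), and cluster 5 (0.39) were higher by less than 2-fold. As a result cluster 4 held the highest *Cldn1* level in W. The fold of cluster 3 over cluster 6 narrowed from 33.7 in UW to 4.46 in W. The 33.7 divides by 5.17 CPM, close to the 4.99 CPM of stromal-like cluster 0 in UW. In W, clusters 6 and 7 stood below neutrophil-like cluster 13 (49.6 CPM) and phagocyte-like cluster 14 (32.8 CPM). The *Cldn1* of clusters 6 and 7 is therefore not shown to exceed what free RNA gives.

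In clusters 2 and 4 the share of cells with a *Cldn1* UMI was higher in W as well. After each cell was thinned to 5000 UMIs, a *Cldn1* UMI was found in 11.2% of UW and 63.2% of W cells of cluster 4 (95% intervals 9.62 to 12.9% and 59.9 to 66.3%), and in 4.76% and 30.0% of cells of cluster 2. Without thinning the shares were 36.1% and 88.6% in cluster 4 and 21.5% and 61.8% in cluster 2. Thinning left out 40 UW and 19 W cells of cluster 4 and 15 and 7 of cluster 2. In stromal-like cluster 0, taken as the level that free RNA gives in cells that should lack the gene, the thinned shares were 2.33% and 4.10% and the median depths 11853 and 17588 UMIs, and in neutrophil-like cluster 13 of W, with a median of 2510 UMIs, 10.7% of cells had a *Cldn1* UMI unthinned. In basal-like cluster 3 the thinned shares were 38.3% and 39.4%, with overlapping intervals, while the CPM was 1.44-fold lower in W and the mean number of *Cldn1* UMIs per thinned cell was 0.815 and 0.706.

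In clusters 2, 4, 6 and 7 the marker lists moved with *Cldn1* as follows. All 5 genes of the basal list were higher in W in clusters 2 and 4 and 4 of 5 in clusters 6 and 7, none was at 0, and the summed level went from 288 to 8581 CPM in cluster 2, from 344 to 15248 in cluster 4, from 288 to 3568 in cluster 6 and from 142 to 1297 in cluster 7. Nearly all of this was *Krt14*, a keratin of basal cells, which went from 57.3 to 14624 CPM in cluster 4. Without *Krt14* the other 4 genes summed to 249 and 344 CPM in cluster 2, 287 and 624 in cluster 4, 247 and 251 in cluster 6, and 93.8 and 109 in cluster 7. In basal-like cluster 3, where *Cldn1* was lower in W, all 5 were higher too and the 4 without *Krt14* summed to 1805 and 2866 CPM. All 4 limbal markers were also higher in W in clusters 2, 4, 6 and 7, none at 0, with sums of 18.5 and 965 CPM in cluster 4, nearly all *Ifitm3* in W (892 CPM). Of the 5 suprabasal markers 4 were lower in W in each of these clusters, in cluster 4 *Dsg1a* (727 and 114 CPM), *Dapl1* (1938 and 866), *Cdkn1a* (968 and 461) and *Pygl* (72.4 and 17.0), and *Krt16* was higher (879 and 12893). In clusters 2 and 4 the summed superficial list was 22240 and 11777 CPM and 12597 and 5029 CPM, the conjunctival list 5050 and 8903 CPM and 2044 and 3931 CPM, and the neutrophil list 1.94 and 1050 CPM and 4.45 and 737 CPM. Among cells with no UMI of the hemidesmosome genes *Itgb4* and *Lamb3*, chosen after their values were seen, the *Cldn1* ratio was 3.17 in cluster 4 (1443 UW and 657 W cells) and 3.13 in cluster 2 (1770 and 669 cells). Both genes are sparse there, *Itgb4* at 1.37 and 11.9 CPM and *Lamb3* at 0.76 and 6.84 CPM in cluster 4, so a cell without their UMIs is not shown to lack them. In mitosis-like cluster 8 the same restriction, to 56 UW and 136 W cells, gave 0.37 in place of -0.38.

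In clusters 2 and 4, detection of *Cldn1* together with another claudin was near the product of the single shares. After thinning, 2.81% of UW and 16.2% of W cells in cluster 2 had both a *Cldn1* and a *Cldn23* UMI. The products of the single shares were 3.08% and 16.2%. In cluster 4 the same pair was found in 3.61% and 18.0% of cells, against products of 3.46% and 15.8%. There, *Cldn1* and *Cldn17* were found together in 2.14% of UW and 18.1% of W cells, against products of 2.37% and 17.1%. Some clusters departed from the product. *Cldn1* with *Cldn23* was found in 13.6% of UW and 12.4% of W cells of conjunctiva-like cluster 5, against products of 17.5% and 16.02%, and *Cldn1* with *Cldn17* in 4.57% of W cells of cluster 8, against 2.85%.

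**Figure D3:**
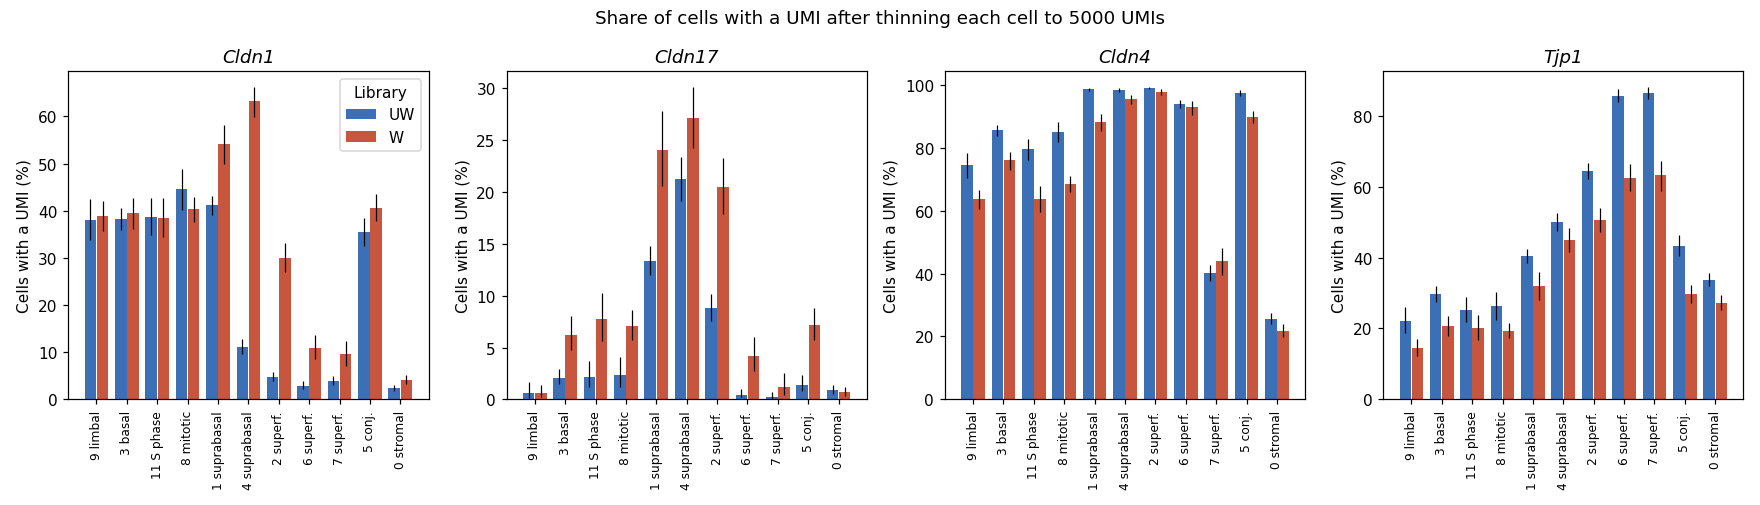
Share of cells with at least 1 UMI of *Cldn1*, *Cldn17*, *Cldn4* and *Tjp1* (percent) after thinning to 5000 UMIs per cell, by cluster, UW in blue and W in red, with exact 95% binomial intervals and stromal-like cluster 0 beside the epithelial clusters. Cluster 0 is not a background for *Tjp1*, which stood at 86.0 CPM there in UW. The *Cldn1* share of cluster 4 goes from 11.2% to 63.2% while that of basal-like cluster 3 stays at 38.3% and 39.4%.

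By CPM, *Cldn17* was higher in W in all 10 epithelial clusters, each with an interval above 0. In basal-like cluster 3 it was 4.91 CPM in UW and 13.998 in W (log2 1.51, 1.23 to 1.79), in conjunctiva-like cluster 5 4.75 and 16.6 (1.81), in cluster 8 3.36 and 13.4 (1.998), in cluster 11 3.38 and 17.8 (2.39) and in cluster 2 19.4 and 43.5 (1.16). It was also higher, by less than 2-fold, in the clusters where it was most abundant, 30.0 and 57.3 CPM in cluster 1 and 47.0 and 66.6 in cluster 4. In clusters 6, 7 and 9 it stayed under 10 CPM in both libraries and was not counted. The thinned share of cells with a UMI was 2.11% and 6.24% in cluster 3, 0.467% and 4.16% in cluster 6, and 0.906% and 0.703% in stromal-like cluster 0. In limbal-like cluster 9 the level rested on 9 UW and 76 W UMIs. The thinned shares there were 0.594% and 0.632%, below those of cluster 0 in both libraries. In UW the levels of clusters 6, 7 and 9 (1.26, 0.744 and 1.18 CPM) were below the 1.55 CPM of cluster 0, so their ratios start from background. The basal, limbal, conjunctival and neutrophil lists were higher and the superficial list lower in W in the same 10 clusters, in cluster 3 with 3061 and 16877 CPM for the basal and 99.5 and 2607 CPM for the limbal list. Without *Krt14* the basal list was lower in W in clusters 8, 9 and 11. The limbal sum of cluster 3 was nearly all *Ifitm3* in W (2482 CPM).

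*Tjp1* was lower in W in all 10 epithelial clusters, each with an interval below 0, and the gap was widest in superficial-like clusters 6 and 7. In cluster 6 it was 429 CPM in UW and 192 in W (log2 -1.16, -1.22 to -1.10), and in cluster 7 467 and 221 (-1.08, -1.14 to -1.02). Elsewhere the ratio ran from -0.30 in cluster 4 to -0.76 in cluster 5. The thinned share of cells with a *Tjp1* UMI was 85.7% in UW and 62.6% in W in cluster 6, and 86.5% and 63.2% in cluster 7. Superficial and conjunctival markers moved with it. In cluster 6, 4 of the 5 genes on the superficial list were lower in W and their summed level was 47745 and 24777 CPM, in cluster 7 all 5 were lower with 59069 and 30309 CPM, and none was at 0. All 4 conjunctival markers were higher in W in both, with sums of 5812 and 12944 CPM in cluster 6 and 4021 and 12280 in cluster 7, and none was at 0. The part of these markers in the *Tjp1* difference was not tested.

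*Cldn4* was lower in W mainly in the proliferative layers. The CPM in UW and W were 940 and 402 in mitosis-like cluster 8 (log2 -1.23, -1.26 to -1.19), 727 and 281 in S-phase-like cluster 11 (-1.37), 559 and 262 in limbal-like cluster 9 (-1.09, or -0.96 with TMM scaling) and 972 and 497 in basal-like cluster 3 (-0.97). In suprabasal-like cluster 4 it was 1094 and 1112 CPM (0.02, 0.00 to 0.05), and the ratios were -0.27 and -0.28 in clusters 2 and 6, -0.66 in cluster 5 and -0.84 in cluster 1. After thinning, 79.5% of UW and 63.7% of W cells of cluster 11 had a *Cldn4* UMI, against 25.7% and 21.9% in stromal-like cluster 0. Markers moved with *Cldn4* here too. The basal and limbal lists were higher in W in all of clusters 3, 8, 9 and 11, and 4 of 5 suprabasal genes were lower in each. Without *Krt14* the basal list was higher in W in cluster 3 (1805 and 2866 CPM). It was lower in clusters 8 (1677 and 1411), 9 (1533 and 1127) and 11 (1955 and 1775). In cluster 9 the limbal marker *Gpha2* was lower in W (1946 and 1412 CPM), while 3 of 4 limbal genes were higher. The summed superficial list was 5634 CPM in UW and 1558 in W in cluster 3 (1 of 5 genes higher in W), 4079 and 1038 in cluster 8 (1 of 5), 1738 and 284 in cluster 9 (0 of 5) and 5511 and 1283 in cluster 11 (0 of 5). The mitotic list summed to 1898 and 940 CPM in cluster 8, with 0 of 4 genes higher, and in clusters 3, 9 and 11 all 4 were higher. No gene of these lists was at 0.

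*Cldn7* and *Ocln* differed less. *Cldn7* was higher in W in 8 of the 10 clusters, by at most 1.47-fold, from 562 to 824 CPM in cluster 7 (0.55, 0.52 to 0.59). In clusters 8 and 9 the interval held 0, and in cluster 5 it was slightly lower (-0.12). *Ocln* was lower in the basal and cycling clusters, with 45.2 and 29.6 CPM in cluster 3 (-0.61), 43.2 and 25.5 in cluster 8 (-0.76), and 34.2 and 19.3 in cluster 11 (-0.82). It was also lower in cluster 7 (-0.59) and higher in cluster 4 (0.26), and in clusters 2, 5 and 9 the interval held 0. By CPM, *Cldn23* was within 1.30-fold of its UW level in all 10 clusters, with ratios from -0.38 in cluster 1 to 0.18 in cluster 3. In clusters 1, 3, 8, 9 and 11 its UW level was near that of stromal-like cluster 0, which was 17.6 CPM in UW and 9.06 in W. The ratios of these 5 clusters are therefore not shown to be those of the cells' own *Cldn23*. In cluster 7 another scaling (TMM) shifted every ratio by -0.38, which turned *Cldn23* from 0.04 to -0.34 and *Cldn4* from 0.09 to -0.29.

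**Figure D4:**
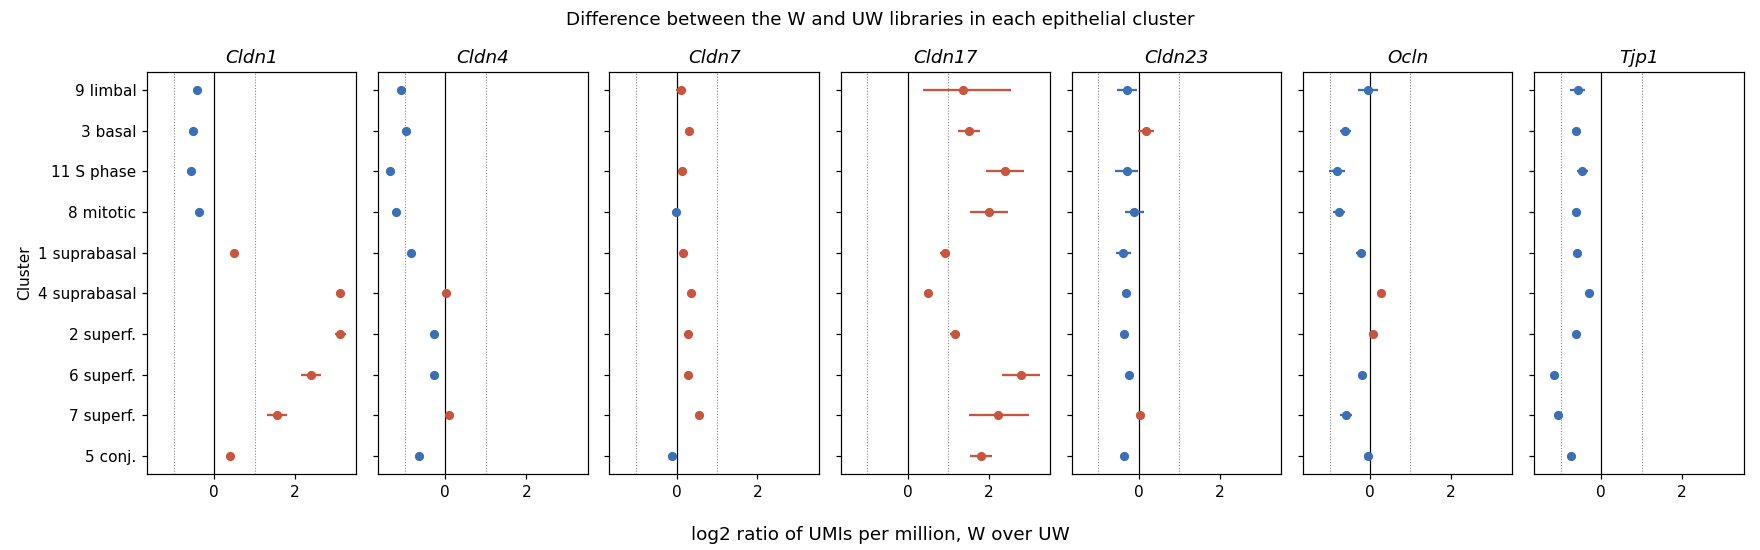
Log2 ratio of CPM in W over UW for each gene (one panel each) in each epithelial cluster (rows), with exact 95% counting intervals, red where higher in W and blue where lower. The solid line marks equal levels and dotted lines mark 2-fold, and *Cldn1* runs from -0.57 in cluster 11 to 3.12 in cluster 2.

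In the clusters, 14 member ratios were past 2-fold, all of *Cldn1*, *Cldn17*, *Cldn4* or *Tjp1*, and they are given here beside the share of all genes past it. Among genes compared, 12.5% were at least 2-fold higher in W in the pooled epithelium and 7.83% at least 2-fold lower, and of the 7 members 0 were higher and 1, *Tjp1*, was lower. With equal weight per cluster *Tjp1* (-0.83) was no longer past 2-fold and *Cldn17* (1.08) was, and *Cldn23* was past it with TMM scaling (-1.15). In cluster 2, 2 of 7 members were past 2-fold upward (*Cldn1* and *Cldn17*) where 6.44% of genes were, and 0 downward where 13.1% were. In cluster 4, 1 of 7 was higher (*Cldn1*, background 7.44%) and 0 lower (13.6%). Cluster 6 had 1 of 6 higher (*Cldn1*, 9.93%) and 1 of 6 lower (*Tjp1*, 9.68%), and cluster 7 the same genes (15.2% and 7.29%). In clusters 3 and 5, 1 of 7 was higher (*Cldn17*, 10.4% and 6.05%) and 0 lower (9.6% and 6.52%). In clusters 8 and 11, 1 of 7 was higher (*Cldn17*, 6.27% and 8.99%) and 1 lower (*Cldn4*, 7.99% and 7.97%). In cluster 9, 0 of 6 were higher (6.65%) and 1 was lower (*Cldn4*, 7.01%, a ratio inside 2-fold with TMM, with DESeq2 size factors and as a mean over cells), and in cluster 1 there was 0 of 7 either way (8.43% and 9.49%).

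The pooled epithelium gave other ratios than its clusters, which were not equally filled in the libraries. In the pooled epithelium *Cldn1* was 71.8 CPM in UW and 124 in W (log2 0.79), *Cldn17* 16.1 and 23.0 (0.52), *Cldn7* 834 and 724 (-0.20), *Ocln* 61.9 and 45.4 (-0.45), *Cldn4* 971 and 576 (-0.75), *Cldn23* 277 and 145 (-0.94) and *Tjp1* 206 and 84.1 (-1.30). With equal weight for each of the 10 clusters the ratios were 0.33, 1.08, 0.24, -0.21, -0.61, -0.13 and -0.83. *Cldn7* thus turned from lower to higher, and *Cldn23* lost most of its gap. Superficial-like cluster 7, which held 41.6% of the *Cldn23* UMIs of UW and 37.0% of those of W, numbered 1511 UW and 528 W cells, whereas mitosis-like cluster 8 numbered 535 and 1332. Scaling by TMM instead of total UMIs shifts every pooled ratio by -0.22 and turns the split of genes past 2-fold from 61.5% higher to 40.7% higher.

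Outside the epithelium, *Tjp1* stood apart from the other members. Epithelial clusters held 99.0 to 99.4% of the UMIs of the 5 claudins and *Ocln* in UW and 97.5 to 98.4% in W, but 95.9% and 88.1% of those of *Tjp1*. In stromal-like cluster 0, *Tjp1* was 86.0 CPM in UW and 63.7 in W, above the 73.9 and 47.9 CPM of basal-like cluster 3, against 58.0 and 52.0 CPM for *Cldn4*. Per *Cldn4* UMI there were 1.48 *Tjp1* UMIs in cluster 0 of UW and 1.23 in W, compared with 0.212 and 0.146 in the pooled epithelium and 0.103 in neutrophil-like cluster 13 of W. *Ocln* was near the epithelial ratio in cluster 0 of UW, with 0.0678 per *Cldn4* UMI against 0.0637, but not in W, with 0.0409 against 0.0790 (69 *Ocln* UMIs). In cluster 13 of W, *Cldn4* was at 153 CPM and *Cldn7* at 154 CPM.

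The number of members detected per cell differed between clusters and was not highest in the outermost one. After thinning, a cell of cluster 6 held UMIs of 4.05 of the 7 genes on average in UW and 3.85 in W, a cell of cluster 2 3.73 and 3.84, a cell of cluster 4 3.41 and 3.87, a cell of cluster 7 3.32 and 3.16, a cell of basal-like cluster 3 2.61 and 2.49, a limbal-like cell 1.95 and 1.82 and a stromal-like cell of cluster 0 0.93 and 0.77. The share of cells with 5 or more members was 13.6% in UW and 30.2% in W in cluster 4, 19.4% and 26.7% in cluster 2, 25.7% and 20.6% in cluster 6, and 10.3% and 9.16% in cluster 7.

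Other junction genes are given here for the pooled epithelium, where 12.5% of all genes were at least 2-fold higher in W, 7.83% at least 2-fold lower, and 3502 of 7456 lower by any amount. Of 13 scaffold and polarity genes past the minimum level, 4 were at least 2-fold lower, 0 at least 2-fold higher and 11 lower by any amount, with a median log2 ratio of -0.57 against 0.05 over the 7456 genes compared. The lowest were *Magi3* (74.8 and 26.3 CPM, -1.50) and *Cgnl1* (88.8 and 37.6 CPM, -1.24), which code for a scaffold and for paracingulin, and the highest *Amotl1* (26.3 and 37.4 CPM, 0.51) and *Crb3* (118 and 134 CPM, 0.19), an apical polarity protein. The pooled ratios are larger than those within clusters for several of these. The median over the 10 clusters was -1.07 for *Magi3*, -0.56 for *Cgnl1*, -0.73 for *Cgn* and -0.70 for *Amotl2*, so 3 of the 4 were inside 2-fold. Both junctional adhesion molecules compared, *F11r* (JAM-A, 312 and 161 CPM) and *Cxadr* (119 and 61.7 CPM), were at -0.95, with medians over the 10 clusters of -0.60 and -1.05. *Tjp3*, a paralogue of *Tjp1* (107 and 84.3 CPM, -0.34), was nearer to no difference and was higher in W in 8 of 10 clusters where *Tjp1* was higher in none. *Tjp3* was singled out after its values were seen.

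In the tricellular and MARVEL list 0 of 4 passed 2-fold (median -0.17), from *Marveld2* (tricellulin, -0.38) and *Ildr1* (-0.24) to *Marveld3* (-0.10) and *Lsr* (angulin-1, 0.39), the last higher in all 10 clusters. Of 14 barrier regulators 1 was past 2-fold upward, *Rab13*, a small GTPase of junction assembly (5.12 and 15.6 CPM, 1.61), and 2 downward, *Arhgef18* (49.7 and 23.6 CPM, -1.07) and *Grhl1* (108 and 51.5 CPM, -1.07). The next highest was *Epcam* (124 and 236 CPM, 0.93), a membrane protein that binds claudins. The list's median was -0.32, and over clusters the median was -0.60 for *Arhgef18* and -0.65 for *Grhl1*. Among 11 adherens junction genes, *Cdh3* (P-cadherin) was 3.0002 CPM in UW and 20.9 in W (2.80) and higher in all 10 clusters, followed by *Vcl* (59.5 and 76.2 CPM, 0.36), while *Ctnna1* (alpha-catenin, 394 and 184 CPM, -1.10) and *Afdn* (afadin, 245 and 139 CPM, -0.82) were lowest and the list's median was -0.14. Over clusters the median of *Ctnna1* was -0.76. *Cldn3* (172 and 122 CPM, -0.49) was the only 1 of 14 other claudins in the table that reached the minimum level. Under the TMM scaling all these ratios are lower by 0.22, which takes *Crb3* just below 0 and *F11r*, *Cxadr* and *Afdn* past 2-fold, as well as further genes of the lists that are not named.

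**Figure D5:**
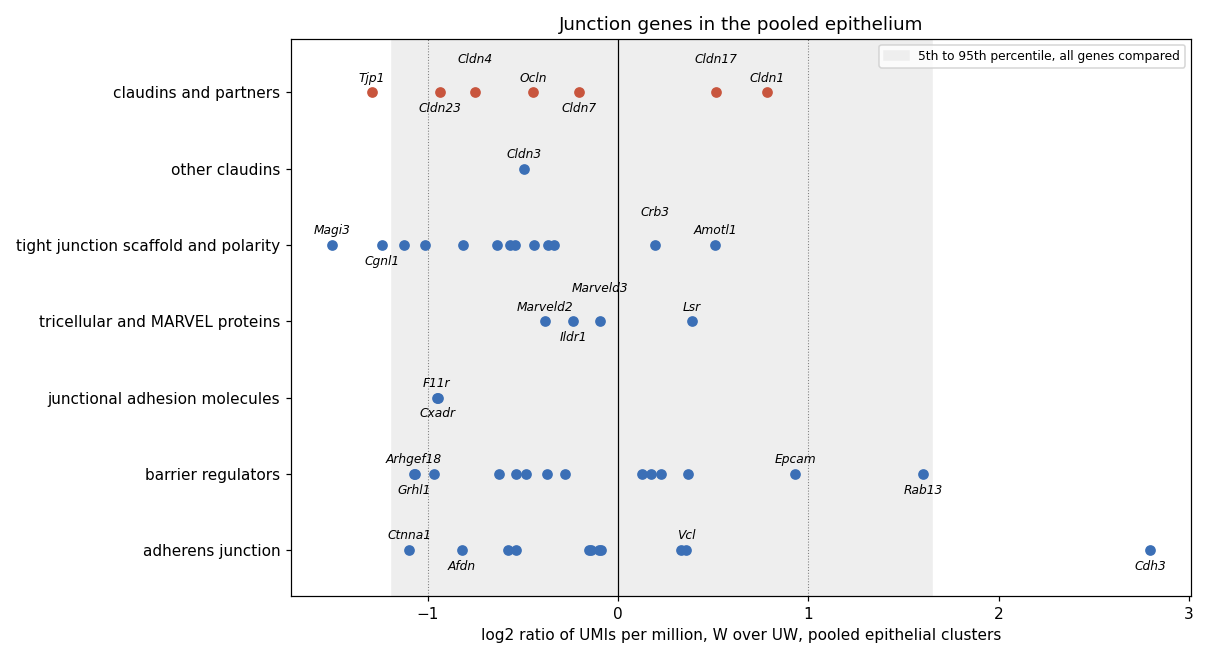
Log2 ratio of CPM in W over UW in the pooled epithelial clusters for each junction gene past the minimum level, by list, with the 7 claudins and partners in red. The grey band spans the 5th to 95th percentile (-1.19 to 1.65) of the 7456 genes compared, and dotted lines mark 2-fold. *Cdh3* at 2.80, *Magi3* at -1.50, *Tjp1* at -1.30 and *Cgnl1* at -1.24 lie outside the band.

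The genes whose levels most resembled each member were found over 28 sums of cluster and library with at least 50 cells (Pearson r of log2(CPM + 1) among 11605 genes). These sums share 2 libraries and the clusters, and epithelial against other cells makes up much of any r, so the values are descriptions. *Cldn1* was most like *Sox9* (r = 0.95), a transcription factor, followed by *2610528A11Rik* and *Ltb4r2*. *Cldn4* was most like *Itpkc* (0.98), *Mpzl2* and *Ppp1r13l*, and *Cldn7* like the adherens junction gene *Nectin4* (0.99) and *Mpzl3*. *Cldn17* had the weakest matches, *Adgrf2* (0.92), *Aacs* and *Mgst3*. *Cldn23* was most like *2310007B03Rik* (0.99), *Muc20*, a membrane mucin, and *Anxa9*, *Ocln* like *Sowahb* (0.98) and the membrane protease inhibitors *Spint2* and *Spint1*, and *Tjp1* like *Uaca* (0.97), *Kazn* and *Arhgef18*, a RhoA activator of junctions. Over the 20 epithelial sums alone the closest genes were *Sh3bp4* for *Cldn1* (0.95, with *Sox9* the third), *Itpkc* for *Cldn4* (0.96), *Mxd1* for *Cldn7* (0.98), *Eif6* for *Cldn17* (0.93), *2310007B03Rik* for *Cldn23* (0.995), *Spint1* for *Ocln* (0.95) and *Trim12c* for *Tjp1* (0.98), so for 5 of the 7 members the closest gene was another one. Between members over the 20 epithelial sums, *Cldn23* and *Tjp1* had r = 0.90, *Cldn7* and *Ocln* 0.87, and *Cldn1* ran against *Tjp1* (-0.83) and *Cldn23* (-0.80).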

How the data were processed

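Single-cell suspensions of pooled corneas were sequenced as 3′ UMI libraries, and the deposited counts were made by the authors with Cell Ranger 3.1.0 and Seurat, as whole UMI counts per gene and cell, with no normalization. The labels name mm9 as the genome build and the study's methods name mm10. Coordinates and promoters here are of GRCm38, the assembly of mm10, and were joined to the counts by gene symbol only. The authors removed doublets with DoubletFinder. The deposited cell table still holds 305 UW and 164 W cells marked in the first of its doublet runs, and a version without them was added once the data had been seen, as were the cells without *Itgb4* or *Lamb3* UMIs. The shallowest cell in the table had 501 genes, the largest mitochondrial share was 9.99%, and no further filter was applied.

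Counts were summed by cluster and library and divided by the summed UMIs of all genes. Intervals were exact Poisson for levels, exact conditional binomial for ratios and Clopper-Pearson for shares, at 95%, and PCR and sampling of animals are outside them. Only clusters with at least 50 cells in each library were compared. For shares, each cell was thinned to 5000 UMIs without replacement (seed 7) and shallower cells were left out. Clusters were named from fixed marker lists. Genes named were the 7 members, the 2 highest and 2 lowest past the minimum in each junction list, and the 3 genes most like each member. Some items that this rule names are not reported here. Members and lists were chosen with earlier results of these data known. The ratio code was tested on simulated data. Scaling alternatives used edgeR 4.0.16 (TMM) and DESeq2 1.42.0 (size factors) for scaling only, under R 4.3.3, and no test was fitted because each condition had 1 library.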

Additional observations from a re-analysis of the deposited data

Results flagged for a closer look

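*Cldn1* differed between W and UW in opposite directions in different epithelial clusters. Its log2 ratio was 3.12 in superficial-like cluster 2, the highest, and -0.57 in S-phase-like cluster 11, the lowest, with counting intervals that lie on opposite sides of 0. With 1 library per condition, the difference between clusters was not tested. Over the alternatives tried the ratio ran from 3.09 to 3.31 in cluster 2 and from -0.64 to -0.43 in cluster 11.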

How the results depend on the processing

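No paired analysis was possible because each condition had 1 library, and for the same reason no replicate could be left out. The pooled ratios (log2 W over UW) of *Cldn1*, *Cldn4*, *Cldn7*, *Cldn17*, *Cldn23*, *Ocln* and *Tjp1* were 0.57, -0.97, -0.42, 0.30, -1.15, -0.66 and -1.51 with TMM scaling, and 0.55, -0.99, -0.44, 0.28, -1.17, -0.68 and -1.53 with DESeq2 size factors. With equal weight per cluster they were 0.33, -0.61, 0.24, 1.08, -0.13, -0.21 and -0.83, and with cells thinned to 5000 UMIs 0.75, -0.52, 0.011, 0.70, -0.67, -0.36 and -1.08. The mean over cells gave *Cldn4* -0.52, *Cldn7* 0.013, *Cldn17* 0.69, *Cldn23* -0.66, *Ocln* -0.33 and *Tjp1* -1.08. Keeping cells from 1000 genes upward with a mitochondrial share up to 5% (1038 UW and 1157 W cells left out) gave *Cldn1* 0.74, *Cldn4* -0.81 and *Tjp1* -1.32, and in W a *Cldn4* log2 ratio to basal-like cluster 3 of 0.65 in cluster 6 and -1.47 in cluster 7. Without cells marked as doublets *Cldn7* was -0.19 and *Cldn23* -0.97. *Cldn7* was thus the one member that turned direction in the pooled epithelium. Past 2-fold there, *Tjp1* was lost with equal weight, *Cldn17* gained with it, and *Cldn23* gained with TMM and DESeq2.

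Within clusters, *Cldn4* turned to -0.041 in cluster 4 with the stricter cells and to -0.29 (TMM) and -0.32 (DESeq2) in cluster 7, *Cldn23* in cluster 7 to -0.34 (TMM), -0.37 (DESeq2) and -0.026 (mean over cells), and *Cldn1* in cluster 8 to 0.37 in cells with no *Itgb4* or *Lamb3* UMI. Ratios near 0 also changed sign for *Cldn7* in cluster 8 (-0.014, against 0.092 with TMM, 0.085 with DESeq2, 0.0045 with the stricter cells and 0.093 as a mean over cells) and *Ocln* in cluster 9 (-0.060, against 0.074 with TMM and 0.064 with DESeq2). The cause was not tested. Of 14 member ratios past 2-fold in clusters 1 was lost, *Cldn4* in cluster 9 (-0.96 with TMM, -0.97 with DESeq2, -0.96 as a mean over cells), and 2 were gained, *Cldn17* in cluster 1 (1.07 as a mean over cells) and *Cldn4* in cluster 3 (-1.02 with TMM, -1.04 with DESeq2, -1.10 with the stricter cells). Genes at least 2-fold lower in the pooled epithelium numbered 584, against 953 with TMM and 980 with DESeq2, and without the minimum level 3969 genes were higher and 1521 lower. Depth limits *Cldn17* most, with 9 UMIs in cluster 9 of UW.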
